A study of Mus musculus with 6 samples.

Results

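Chromatin accessibility was examined at 7 mouse genes of bile acid handling and ileal identity: Nr1h4, Fgf15, Slc10a2, Fabp6, Slc51a, Slc51b and Onecut2. They were 7 of 21938 annotated protein-coding genes. In each of 6 lists of ATAC-seq peaks, a peak belonged to a gene when its summit lay in the gene body or within 20 kb on either side. Merging the lists gave 48 member regions out of 71286 regions genome-wide. ATAC-seq marks open chromatin with a transposase that cuts and tags accessible DNA, and a peak is a stretch where tagged fragments pile up above background.

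The samples were 3 of intestinal crypts from wild-type (WT) mice and 3 from Arid3a conditional knockout (cKO) mice. The cKO mice were VillinCre-ERT2+/-; Arid3a fl/fl, in which the Villin promoter drives a tamoxifen-dependent Cre recombinase in intestinal epithelial cells, so cells of the stroma keep the gene. The alleles of the WT mice and the age of the animals were not given in the sources used here. Tamoxifen was given to both groups on 3 days in a row, and tissue was taken 1 month after the first dose, so the WT lists carry the drug exposure as well. Arid3a encodes an AT-rich DNA binding protein, and the design asked whether its loss changes accessibility. The GEO labels name intestinal crypts without a segment, and the methods of the study describe crypt isolation from the proximal jejunum for cell dissociation.

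Bile acids are secreted into the duodenum and reclaimed mainly in the ileum, the last part of the small intestine. There the apical transporter ASBT (Slc10a2) takes them up, the cytosolic carrier I-BABP (Fabp6) binds them, and the heterodimer of OSTα (Slc51a) and OSTβ (Slc51b) exports them to the blood. Inside the cell they activate the nuclear receptor FXR (Nr1h4), which switches on Fgf15, a hormone that signals to the liver to lower bile acid synthesis. Onecut2 is a transcription factor of the intestinal epithelium best known from its proximal part.

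Open chromatin was called at all 7 loci in all 6 lists. How many protein-coding genes have such a call was not computed, but their median was 3 peaks in the gene body plus 20 kb. A call at a locus is therefore common and does not set these genes apart. Of the 48 member regions, 24 lay nearer to the start of another gene. The place of the calls differed between the 7 genes. A promoter peak, with a summit between 1000 bp upstream and 100 bp downstream of an annotated start site, was called in all 6 lists at 4 of the 7 genes, namely Fgf15, Slc10a2, Slc51b and Onecut2. Over all protein-coding genes the share was 44.6%. Nr1h4 and Slc51a had such a summit in 5 of 6 lists, and in the remaining list (WT 1 for Nr1h4, cKO 1 for Slc51a) the called region covered the start but its summit fell outside the window. Fabp6 had a promoter peak in 0 of 6 lists, as did 38.3% of protein-coding genes. With a window from 2000 bp upstream to 500 bp downstream, 6 of the 7 genes had a promoter peak in all 6 lists and Fabp6 was the exception. The share of all protein-coding genes was not computed for this wider window, and the 44.6% does not apply to it.

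**Figure D1:**
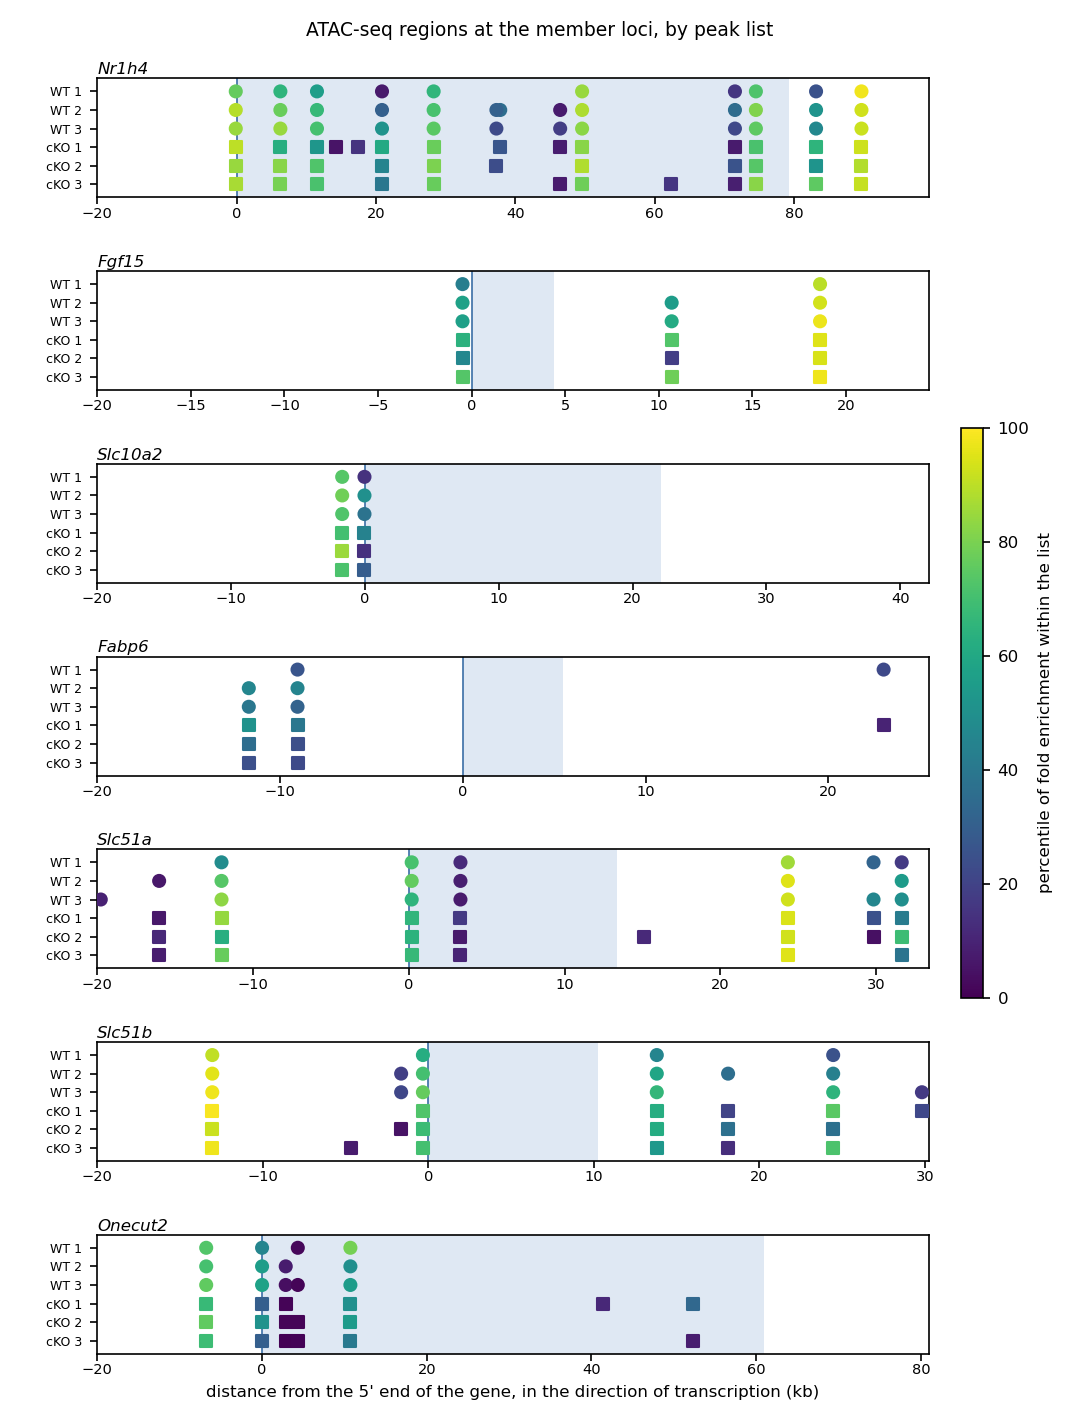
Each panel is 1 gene, with distance from its 5′ end along transcription on the x axis (kb), the gene body shaded and the 6 peak lists as rows (circles WT, squares cKO). Each symbol is a called region, coloured by the percentile of its fold enrichment within that list. Fabp6 has no symbol at its start or within its body, while the other 6 genes have a column of 6 symbols at the start.

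The sequences under the main summits are shown here because the accounts of the single genes rest on these positions. Each runs from 100 bp before to 100 bp after a summit, read from GRCm38.p6 in the direction of the gene, and the Slc10a2 start window is cut at the first transcribed base, leaving 131 bases. The window at Fgf15 lies in an exon of the noncoding gene Gm26793. The windows at the distal Nr1h4 start, Slc51b and Slc10a2 and the Fabp6 upstream window are intergenic, the Nr1h4 downstream window lies past the 3′ end of the gene, and the Nr1h4 intron window lies between its distal and internal starts. The last sequence is the RefSeq promoter of Fabp6 up to its start site, shown because no peak was called there. Capitals mark exact matches on either strand to a few short motifs. For the enterocyte factor HNF4 the letters were CAAAGTTCA or CAAAGTCCA. For GATA factors, which include the proximal factor GATA4, they were AGATAA. For CDX factors of the intestine they were TTTATTG, or the same letters ending in GG. The AP-1 motif was searched as TGACTCA and with G in place of the middle C. ARID3, the family of the deleted factor, was searched as ATTAAA or ATCAAA. LRH-1 was searched as TCAAGGTCA, which contains the nuclear receptor half-site AGGTCA, itself a further motif. In the Fabp6 promoter, capitals mark a match to the FXR inverted repeat, AGGTCA and TGACCT separated by 1 base, with the fewest mismatches. The stretch aggtgaataacct, nearer to the start, matches equally well and is left in small letters.
Nr1h4 distal start, chr10:89533598-89533798, minus strand: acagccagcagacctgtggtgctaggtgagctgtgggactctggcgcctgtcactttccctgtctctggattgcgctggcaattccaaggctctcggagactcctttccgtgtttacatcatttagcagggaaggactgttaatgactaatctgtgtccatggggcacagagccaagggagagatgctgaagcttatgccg
Fgf15 start, chr7:144895945-144896145, plus strand: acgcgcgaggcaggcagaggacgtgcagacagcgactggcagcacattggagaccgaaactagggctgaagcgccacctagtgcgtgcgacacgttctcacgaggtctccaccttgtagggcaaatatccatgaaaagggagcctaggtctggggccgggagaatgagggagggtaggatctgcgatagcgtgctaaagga
Slc10a2 start, chr8:5105352-5105482, minus strand: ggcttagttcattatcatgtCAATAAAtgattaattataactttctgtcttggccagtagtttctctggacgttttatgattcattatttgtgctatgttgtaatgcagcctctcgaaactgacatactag
Slc10a2 upstream, chr8:5106948-5107148, minus strand: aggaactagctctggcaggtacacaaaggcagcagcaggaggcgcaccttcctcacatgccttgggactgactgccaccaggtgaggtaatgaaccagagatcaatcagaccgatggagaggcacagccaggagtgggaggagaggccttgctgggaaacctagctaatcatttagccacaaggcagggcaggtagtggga
Slc51b start, chr9:65423178-65423378, minus strand: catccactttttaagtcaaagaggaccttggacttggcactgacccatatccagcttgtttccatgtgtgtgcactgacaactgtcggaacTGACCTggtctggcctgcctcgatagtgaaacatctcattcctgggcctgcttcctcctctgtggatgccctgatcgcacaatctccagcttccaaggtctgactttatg
Fabp6 upstream, chr11:43610482-43610682, minus strand: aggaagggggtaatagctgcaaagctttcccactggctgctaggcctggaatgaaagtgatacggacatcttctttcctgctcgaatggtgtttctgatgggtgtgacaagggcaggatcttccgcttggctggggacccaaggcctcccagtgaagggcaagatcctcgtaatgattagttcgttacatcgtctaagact
Nr1h4 downstream, chr10:89450315-89450515, minus strand: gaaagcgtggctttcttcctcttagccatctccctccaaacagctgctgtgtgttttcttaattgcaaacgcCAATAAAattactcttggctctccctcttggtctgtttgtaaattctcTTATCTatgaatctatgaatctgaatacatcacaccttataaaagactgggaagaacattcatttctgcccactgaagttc
Nr1h4 intron, chr10:89512611-89512811, minus strand: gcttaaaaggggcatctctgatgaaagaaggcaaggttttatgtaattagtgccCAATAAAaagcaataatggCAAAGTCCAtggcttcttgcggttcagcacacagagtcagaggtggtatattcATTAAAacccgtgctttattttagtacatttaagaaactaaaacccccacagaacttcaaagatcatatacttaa
Fabp6 promoter, chr11:43601563-43601812, minus strand: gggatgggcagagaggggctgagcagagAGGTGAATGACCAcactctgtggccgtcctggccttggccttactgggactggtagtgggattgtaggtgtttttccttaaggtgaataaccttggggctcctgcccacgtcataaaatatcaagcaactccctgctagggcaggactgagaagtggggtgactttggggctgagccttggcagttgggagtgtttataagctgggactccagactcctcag

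The windows shown for the distal start of Nr1h4, Fgf15, Slc10a2 upstream and Fabp6 upstream held 0 of these letters. The shortened Slc10a2 start window held 1 CDX match (3 before it was cut at the first transcribed base), and the Slc51b start held 1 half-site. At Nr1h4, the downstream window held 1 GATA and 1 CDX match, and the intron window held 1 HNF4, 1 CDX and 1 ARID3 match. Over the 48 member regions, HNF4 letters occurred in 2 (4.17%, against 2.52% of all 71286 regions), GATA in 8 (16.7% against 12.8%) and CDX in 6 (12.5% against 8.47%). AP-1 letters occurred in 3 (6.25% against 8.11%), ARID3 in 7 (14.6% against 16.1%), the half-site in 5 (10.4% against 15.3%) and LRH-1 in 0 (0.445% of all regions). These counts are descriptions of windows of 201 bases. The GC content was 51.7% at the median member region and 51.2% at the median of all regions.

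No member region held the FXR inverted repeat with at most 1 mismatch, which 0.0814% of all regions did, and 2 held it with at most 2 mismatches, against 1.21% of all regions. RefSeq promoters, from 250 bases before to 50 bases after the start, were matched for 5 of the 7 members, and Fgf15 and Onecut2 were not in that table. The Fabp6 promoter matched the repeat with 2 mismatches, and 1.14% of 32841 promoters matched at least as well. The match in capitals begins 222 bases upstream of the start, and the equally good aggtgaataacct lies nearer to the start. Slc51a and Slc51b matched with 3 mismatches, as well as 11.4% of promoters, and Slc10a2 and Nr1h4 with 4. The RefSeq promoter of Nr1h4 is that of its internal start, not of the distal start whose window is shown. The closest matches among the 5 promoters thus stood in the one without a called peak.

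Nr1h4 (ENSMUSG00000047638.15, chromosome 10, 89454234 to 89533585, minus strand), which encodes the bile acid receptor FXR, had the most regions of the set, 16 in its window of 119.35 kb, 10 of them in all 6 lists. Per 100 kb this was 13.4 regions, below Slc51a (16.9) and Slc51b (15.9). The region at its distal start (summit 113 bp upstream) was called in every list. Fold enrichment there, the authors' ratio of summit pileup to local background, reached 7.91, 13.0 and 11.4 in the WT lists and 11.8, 11.0 and 10.2 in the cKO lists, in the order of replicates 1, 2 and 3 that all such values follow. These folds stood at percentiles 76.2, 88.8 and 84.7 of the WT lists and 89.9, 84.7 and 87.1 of the cKO lists, where 100 is the most enriched peak of a list. The summit pileup, solved from the fold and p columns, was 36 to 114 reads deep. Every list therefore placed the FXR start above its 75th percentile, and the genotypes overlapped (83.2 ± 6.42 in WT and 87.2 ± 2.57 in cKO, SD, n = 3).

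An intronic region 22.7 kb downstream of the internal Nr1h4 start was as enriched as the distal start. Its fold was 9.37, 12.7 and 10.9 in the WT lists and 10.2, 11.9 and 8.79 in the cKO lists, at percentiles between 78.1 and 88.3. The internal start itself carried a region 1350 bp into the transcript, at percentiles 65.4, 70.8 and 74.2 in WT and 77.0, 80.1 and 76.9 in cKO. All 3 cKO values there were above all 3 WT values, on a difference of rank scores of 0.24 ± 0.23 (SE, limma adjusted p = 0.787). The highest region of the Nr1h4 window was the start of the neighbouring gene Gas2l3, with folds from 11.1 to 14.3 and percentiles from 88.4 to 98.0.

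Only 2 member regions had an unadjusted limma p under 0.05, and both were at Nr1h4. The test compared ranks of fold within each list, turned into normal scores, over the 32748 regions called in all 6 lists. The intergenic region 56.2 kb from the internal start, past the 3′ end of Nr1h4 and 6448 bp from the start of Gas2l3, had folds of 3.96, 6.35 and 5.84 in the WT lists and 7.76, 6.05 and 8.42 in the cKO lists. Among regions shared by all lists it stood at percentiles 14.7, 29.6 and 21.7 in WT and 43.1, 34.3 and 62.3 in cKO, so the genotypes did not overlap. The score was 0.70 ± 0.26 higher in cKO (SE), with a limma adjusted p = 0.677 over all shared regions. The difference did not pass the test.

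The intronic region 6.05 kb upstream of the internal Nr1h4 start, whose window holds the HNF4 letters, was weak in WT 1. Its folds were 3.20, 4.70 and 6.24 in WT and 7.24, 5.50 and 5.26 in cKO, on pileups of 13, 16 and 29 in WT and 48, 20 and 24 in cKO. WT 3 lay within the range of the cKO lists. The score difference was 0.66 ± 0.29 (SE) with a limma adjusted p = 0.704, which did not pass.

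Fgf15 (ENSMUSG00000031073.6, chromosome 7, 144896531 to 144900953, plus strand) encodes the ileal hormone that FXR induces. Its promoter region, with a summit 486 bp upstream and inside an exon of the noncoding gene Gm26793, was called in 6 of 6 lists. The fold was 4.82, 6.98 and 6.74 in the WT lists and 7.61, 5.61 and 8.18 in the cKO lists. Its percentile ran from 42.5 in WT 1 to 73.4 in cKO 3, with means of 52.1 ± 8.30 in WT and 61.2 ± 13.7 in cKO, and cKO 2 lay inside the WT range (score difference 0.25 ± 0.26 SE, limma adjusted p = 0.796). The region covers both the Fgf15 start and that exon, so the peak cannot be given to one gene.

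A second region, 10.7 kb past the Fgf15 start in an exon of the noncoding gene Gm39119, was absent from WT 1 alone. Its fold was 6.71 and 7.26 in WT 2 and WT 3 and 8.73, 3.96 and 8.76 in the cKO lists. The highest region of the window, with folds of 10.4 to 16.1 and percentiles of 89.7 to 97.3, stood at the start of LTO1 and not of Fgf15.

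Slc10a2 (ENSMUSG00000023073.2, chromosome 8, 5083219 to 5105351, minus strand) encodes ASBT, the uptake transporter of the ileal brush border. Only 2 regions were called in its 62.13 kb window, 3.22 per 100 kb, and both were called in 6 of 6 lists. The region at the start, 31 bp upstream, was weak, with folds of 3.53, 6.19 and 5.13 in WT and 5.77, 3.72 and 4.59 in cKO. Its percentiles were 14.1, 49.8 and 38.0 in WT and 44.0, 14.0 and 29.1 in cKO, on 14 to 39 reads. WT 1 and cKO 2 were lowest, and the spread within each genotype was larger than the difference between the means of 34.0 ± 18.2 and 29.0 ± 15.0 (limma adjusted p = 0.903).

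The second Slc10a2 region, 1.70 kb upstream and outside the promoter window, was the stronger of the pair in every list. It had folds of 7.52, 10.2 and 8.85 in WT and 8.37, 11.1 and 7.99 in cKO, at percentiles 74.7 ± 3.14 and 75.6 ± 8.28. No region was called in the gene body. The score of the upstream region differed by 0.00 ± 0.26 between genotypes (SE, limma adjusted p = 0.997).

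Fabp6 (ENSMUSG00000020405.4, chromosome 11, 43596049 to 43601540, minus strand), which encodes the ileal bile acid carrier, was the only member without a promoter peak in any list. No list held a peak at its start or in its body. The nearest region was intergenic, 9.04 kb upstream, and was called in all 6 lists at low rank, with folds of 4.03, 5.80 and 4.68 in WT and 5.43, 4.23 and 4.18 in cKO on 16 to 26 reads. Its percentile was 34.4 ± 9.69 in WT and 28.6 ± 9.60 in cKO (limma adjusted p = 0.875).

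A further Fabp6 region 11.7 kb upstream had the highest mean percentile of the locus when a missing call counted as 0. It was absent from WT 1 and had folds of 5.87 and 5.27 in WT 2 and WT 3 and 6.35, 4.86 and 4.35 in cKO. The third, 23.0 kb past the start in an intron of Ccnjl, was called only in WT 1 and cKO 1. The weakest member peak called in any list held 10 reads, and the lists do not show openings under the threshold of the peak caller, so a weak opening at the Fabp6 start was not detectable here.

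Slc51a (ENSMUSG00000035699.8, chromosome 16, 32474504 to 32487879, minus strand) encodes OSTα, the larger subunit of the basolateral exporter. The region over its start had its strongest summit in the first exon, 11 bp into the transcript from the nearer of 2 annotated starts. Folds were 7.17, 9.75 and 7.78 in WT and 7.83, 7.34 and 7.49 in cKO, at percentiles 70.6 ± 5.48 and 65.6 ± 1.40. The 6 folds lay close together, and the score difference of -0.22 ± 0.25 (SE) did not pass (limma adjusted p = 0.810). An intronic region 3.14 kb past the start was called in every list at the bottom of the ranking, between percentiles 6.70 and 17.1. The highest region of the window stood 605 bp from the start of Pcyt1a, with folds of 9.56 to 15.4.

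Slc51b (ENSMUSG00000053862.6, chromosome 9, 65412714 to 65422955, minus strand) encodes OSTβ, the partner subunit. Its promoter region, 323 bp upstream, had folds of 6.21, 8.67 and 9.60 in WT and 8.68, 7.85 and 7.84 in cKO. Both subunits of the exporter thus had an open start of similar rank, at percentile 69.5 ± 7.34 in WT and 70.3 ± 2.18 in cKO for Slc51b (score difference -0.03 ± 0.23 SE, limma adjusted p = 0.970). The highest region of this window lay 215 bp from the start of Mtfmt, at percentiles 90.4 to 98.9, and another stood at the start of Rasl12.

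**Figure D2:**
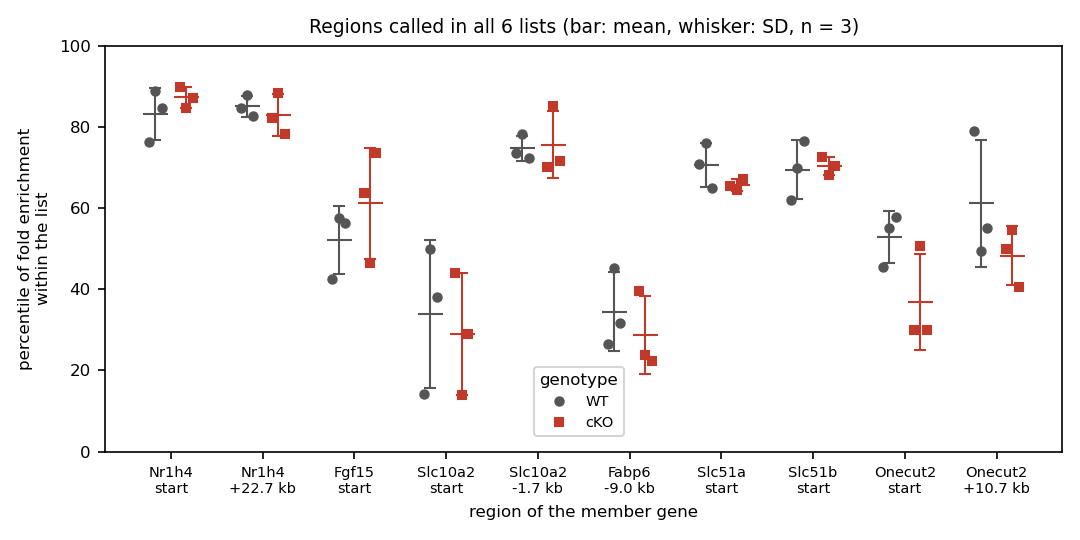
The y axis gives the percentile of fold enrichment within a list for 10 member regions called in all 6 lists, with points for single lists (circles WT, squares cKO) and the mean ± SD of 3. The Nr1h4 regions stand above percentile 76 in every list, and the Slc10a2 start and the Fabp6 upstream region stay below percentile 50.

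Onecut2 (ENSMUSG00000045991.19, on chromosome 18) had the widest region of the 48 over its start, 2818 bp. Folds there were 4.98, 6.72 and 6.91 in WT and 4.70, 5.94 and 4.66 in cKO, on 60 to 177 reads. The percentiles within the lists were 45.5, 55.1 and 57.7 in WT and 30.1, 50.6 and 30.0 in cKO, which overlapped. Ranked only among the shared regions they were 34.1, 33.9 and 33.6 in WT and 11.9, 32.8 and 15.0 in cKO. These did not overlap, although cKO 2 lay within 1 point of WT 3. The score was -0.47 ± 0.25 (SE) in cKO relative to WT, the smallest p among regions lower in cKO, and did not pass (limma adjusted p = 0.707). Under the alternative settings it stayed negative, from -0.13 when ranked by −log10 q in place of fold to -0.70 without cKO 2.

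The highest Onecut2 region lay 6.77 kb upstream, at percentiles 67.4 to 75.6, and was nearer to the start of St8sia3os. An intronic region 10.7 kb downstream had percentiles of 79.0, 49.4 and 55.0 in WT and 49.8, 54.6 and 40.5 in cKO, so its WT mean rested on WT 1. Far into the gene, a region 52.3 kb downstream was called in cKO 1 and cKO 3 and in 0 WT lists, and a region 41.4 kb downstream in cKO 1 alone. These calls had 20 reads or fewer.

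The genotypes were then compared over the whole set. In crypts taken in bulk, fewer cells with an open site and less opening per cell cannot be told apart. Peaks at the 7 loci numbered 34, 37 and 39 in the WT lists and 41, 39 and 39 in the cKO lists (36.7 ± 2.52 and 39.7 ± 1.15, SD, n = 3). The lists themselves differed in length, from 40492 peaks in WT 1 to 58297 in cKO 1, and per 10000 peaks the loci held 7.59 ± 0.706 in WT and 7.67 ± 0.689 in cKO. Shortened to equal length, the lists held 34.3 peaks at the loci in WT and 31.3 in cKO on average, so the sign of the difference depended on list length. At no member did the peak numbers of the genotypes fail to overlap, with 0 of 7 higher and 0 of 7 lower in cKO, against 0.857% and 0.36% of all protein-coding genes.

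Calls were largely shared. Of the 48 member regions 27 were called in all 6 lists (56.25%), against 45.9% of all regions, while 14 were called in 2 to 5 lists and 7 in 1 list. No member region was called in 3 of 3 cKO and 0 of 3 WT lists (0.464% of all regions) or the reverse (0.111%). The 7 regions of 1 list stood between percentiles 5.15 and 15.4, in the lowest part of their lists. The 3 regions missing from a single list, at Fgf15, Fabp6 and Onecut2, were all missing from WT 1, the shortest list.

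Among the 27 shared member regions, the limma test of rank called 0 at an adjusted p under 0.05, as it did over all 32748 shared regions (0%), and each of the 13 fits run, this one included, gave 0 calls over all regions. At an unadjusted p under 0.05 it called 2 of 27, against 7.02% of all shared regions. Ranks did not overlap between genotypes at 2 regions that were higher in cKO and 1 that was lower, against 5.86% and 6.08% of all shared regions, so these numbers were near the background. The direction of the mean was mixed and depended on the scale: 13 regions were higher and 14 lower in cKO by percentile among shared regions, 14 and 13 by score, and 16 and 11 by percentile within the whole list. The median score difference was 0.0031 over the members and -0.031 over all shared regions. The median percentile of the 27 regions was 61.9, 69.9 and 70.7 in WT and 65.4, 68.1 and 71.6 in cKO. The labels do not state how the replicates were separated, so the p-values measure only the spread between these samples, which may be technical.

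**Figure D3:**
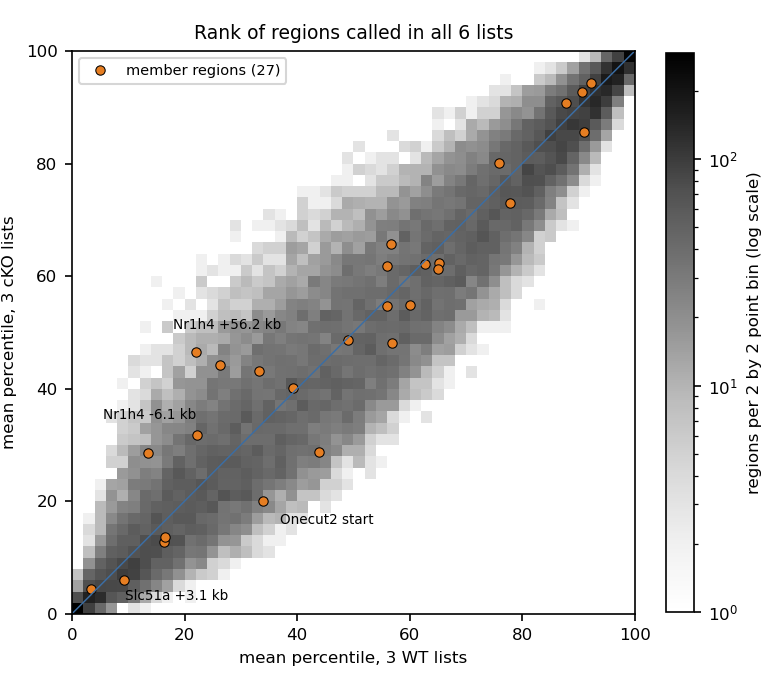
Mean percentile in the 3 WT lists (x axis) against the 3 cKO lists (y axis) for the 32748 regions called in all 6 lists, as a density on a log scale, with the 27 member regions as points. Members lie on both sides of the diagonal, and the labelled points are the 3 regions with the smallest limma p and the lowest-ranked Slc51a region.

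The other genes of the pathway were described in the same way, by promoter peaks. Of 9 genes of bile acid sensing and signalling, 7 had a promoter peak in all 6 lists. They included Nr0b2, the repressor that FXR induces (median percentile 71.0), Klb, the co-receptor of the hormone (76.2), and Malrd1, a regulator of Fgf15 production (90.4, the highest of the group). Rxra, the partner of FXR, was the lowest at 14.3. Fgfr4, the hormone receptor that acts in the liver, had none, and Gpbar1, the membrane bile acid receptor, had 1 call, in a WT list.

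Of 7 genes of bile acid and sterol transport, 4 had promoter peaks in all 6 lists, with Abcc4 highest (92.7) and Abcc2 lowest (62.2), and the divergent pair Abcg5 and Abcg8 shared a single peak (74.9). The liver transporters Slc10a1 (NTCP) and Abcb11 (BSEP) had none. Of 8 genes of bile acid synthesis and conjugation only Hsd3b7 had a promoter peak in all 6 lists (67.1). The rate-limiting enzyme Cyp7a1, and Baat and Slc27a5, which conjugate bile acids, had none. Cyp8b1, Cyp27a1, Cyp7b1 and Akr1d1 had calls in 4, 5, 2 and 1 lists, those of Cyp7b1 and Akr1d1 in cKO lists only. Promoter peaks in all 6 lists were thus found at 7 of 9, 4 of 7 and 1 of 8 genes of these groups, beside the 44.6% of all protein-coding genes.

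Genes that mark intestinal segments did not split by segment in their promoter calls. The share of all protein-coding genes called in all 6 lists, 44.6%, is the background for these counts. In the proximal list 2 of 8 were called in all 6 lists, Slc40a1 (91.4) and Gata4 (60.3), the latter a factor of duodenum and jejunum that is low in ileum. Fabp1 was called in 5 lists, and Pdx1, Cybrd1, Trpv6, Lct and Gip in 0. The distal list had 1 of 4, Amn (51.2), while its partner in ileal vitamin B12 uptake, Cubn, had 0 promoter calls but 5 to 8 peaks within 20 kb. The large intestinal list had 3 of 5, with Aqp8 highest (83.5) and Car4 lowest (41.7), and Car1 had 0 peaks within 20 kb in any list. A called promoter is not expression, and all 3 segment lists held genes with a peak in 6 of 6 lists, so the calls did not assign the crypts to a segment. The ileal genes of this set likewise included starts with a called region (Fgf15, Slc10a2, Slc51a, Slc51b) and a start without a called peak (Fabp6). The Fgf15 region also covers an exon of Gm26793, and the Slc10a2 start was weak, with −log10 q of 3.19 in WT 1 and 3.84 in cKO 2.

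**Figure D4:**
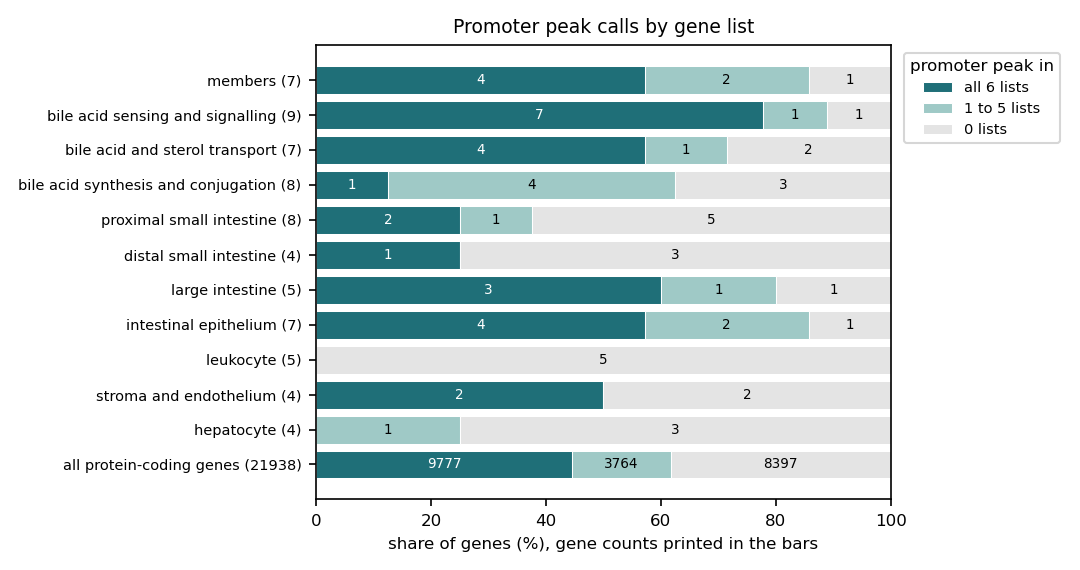
Bars give the share of genes (x axis, %) in each list with a promoter peak in all 6, in 1 to 5 or in 0 peak lists, with gene counts in the bars and list sizes in parentheses. Sensing and signalling has the largest share in all 6 lists (7 of 9), and the leukocyte and hepatocyte lists have 0 genes in that class.

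Promoters of markers of other cell types were checked in the same way. Vil1 (79.2), Cdx2 (70.3), Olfm4 (67.0) and Alpi (39.1) had promoter peaks in all 6 lists. Epcam had one in 5 and Lgr5 in 2 (WT 1 and WT 3), and Cdx1 had none. Over all protein-coding genes 44.6% had a promoter peak in all 6 lists and 38.3% in none. Of 5 leukocyte markers 0 had a promoter peak in any list. Among stroma and endothelium markers Col1a1 (74.4) and Pdgfra (80.8) had one in all 6 lists and Col1a2 and Pecam1 in none. Of 4 hepatocyte markers only F2 had any, in 2 lists.

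By genotype, 0 of the 61 genes in these 10 lists had a promoter called in 3 of 3 lists of one genotype and 0 of 3 of the other. The share of all protein-coding genes under that rule was not computed. Of the 24 called in all 6 lists, 0 had percentiles wholly higher in cKO and 4 wholly lower, namely Nr1i2, Hsd3b7, Car4 and Cdx2. Over the 9777 protein-coding genes called in all 6 lists these shares were 2.89% and 9.66%. The limma test covered only regions called in all 6 lists, and 0 of these passed in either direction. Promoters called in fewer lists were not tested.

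Likeness was measured as the mean absolute difference over the 6 lists in the percentile of the highest peak within 20 kb of a gene. Nearest to Fabp6 were Chrm4 and Mdk on chromosome 2, which tied at 3.25 points, and 9 genes in all, these included, lay within 5 points. Nearest to Slc10a2 were C1qtnf6 and Sstr3 on chromosome 15, tied at 1.36 points, with 467 genes within 5. For Nr1h4 the nearest were Gas2l3, at 0 points because its own start is the highest peak of both windows, and Pomp at 0.643 points, with 5323 genes within 5.

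The lists themselves did not separate by genotype in rank. Over the shared regions Spearman's rho between lists ran from 0.753 (WT 1 and cKO 1) to 0.923 (WT 2 and WT 3), and WT 1 was closest to cKO 2 (0.883). Depth, solved from the same columns as the pileup, came to 1.82 to 2.11 reads of background per base in WT and 1.75 to 2.29 in cKO, and the median fold was lowest in WT 1 (5.26) and highest in cKO 1 (6.24).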

How the data were processed

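Accessibility was profiled by the authors with ATAC-seq in 3 WT and 3 Arid3a cKO crypt samples, and reads were processed with the nf-core pipeline (Trim Galore, BWA, GRCm38, blacklist removal, MACS narrow peaks per sample, effective genome size 2.6 Gb). No input control was described. The deposited lists hold, per peak, a score, a fold enrichment (a ratio of pileup to background), −log10 p and −log10 q, all as the authors computed them. They hold no counts, so the DESeq2 test of the study was not possible.

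Peaks outside chromosomes 1 to 19, X and Y were dropped, percentiles were ranks of fold within a list, and lists were merged where peaks overlapped by at least 1 base. Ranks of the regions in all 6 lists were turned into normal scores and compared with limma 3.58.1 (R 4.3.3), two-sided, without covariates, with Benjamini-Hochberg adjustment over all of them and a threshold of 0.05. Pileups were solved from fold and p, which gave whole numbers within a relative tolerance of 2e-05 for all 2000 peaks sampled per list. Genes and the start sites behind the promoter peaks came from GENCODE M21, and the promoter sequences searched for the FXR repeat from RefSeq. Scripts used Python 3.11.15, pandas 2.3.3 and pysam 0.24.0, and were tested on simulated data.

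The members and gene lists were chosen with earlier results of these data known. 1 gene that stays in the list counts is not reported here. Regions were named by a rule: the highest region by mean percentile and the start region of each member, regions of 1 genotype only, the 3 smallest p, and in each list the highest and lowest gene among those called in all 6 lists. The internal start and 22.7 kb regions of Nr1h4, the 9.04 kb region of Fabp6, the 3.14 kb region of Slc51a, the 10.7 kb regions of Fgf15 and Onecut2 and the regions of 1 or 2 lists were named after their values were seen. Alternatives were stricter peaks, equal list lengths, other windows, left-out replicates, ranks of −log10 q, log2 fold and a replicate block.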

Additional observations from a re-analysis of the deposited data

How the results depend on the processing

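Over 8 results, 90 alternative values were computed, of which 86 kept their direction and side of the threshold or moved by less than the replicate spread, and 4 moved. The difference in peaks at the loci (cKO minus WT) was 3 per list, and -3 with lists of equal length, which have fewer peaks by construction. Leaving out 1 list gave 1.67 to 4.17. The difference in median percentile was 0.892 points, and 6.41 with gene body plus 50 kb, which adds regions of other genes. Its sign turned with lists of equal length (-1.95), without cKO 3 (-0.719) and with fixed windows around summits in place of whole peaks (-0.076). Member regions called in 1 genotype only numbered 0, and 0 to 2 when 1 list was left out: 2 without WT 2 and 1 without cKO 2. All of these were called in cKO only. The share of all regions under these looser rules was not computed. Promoter peaks in all 6 lists were found at 3 to 6 of the 7 members. The share of all protein-coding genes was not computed for these alternatives. All 13 fits over all regions gave 0 adjusted calls.

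With a replicate block, limma called 0 regions at the adjusted threshold and 2178 at an unadjusted p under 0.05, against 2300 without it, and the Nr1h4 region 56.2 kb from the internal start had a score difference of 0.70 (limma adjusted p = 0.689). Same-numbered lists correlated at -0.27, -0.0049 and 0.12 in their deviations from the group means. Lists of different numbers ranged from -0.32 to 0.31, so these values cannot show whether the replicate numbers pair the samples. The lists hold only called peaks, so a weak opening under the threshold cannot be told apart from none.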
